A study of Mus musculus with 15 samples.

Results

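The genes described here are 39 genes of granulocytes, monocytes and macrophages, measured in mouse pro-B cell cultures. The set holds 13 genes of neutrophil granules and granulocyte cytosol, 11 genes of macrophages and 15 others: lysozymes, C/EBP transcription factors, growth factor receptors, Fc receptors, adaptors and surface proteins. Every probe of the array whose gene symbol is one of the 39 was taken, and a gene was kept when at least 1 of its probes was above background on 3 or more arrays. Of the 39 genes, 38 had a named probe and 24 were kept, out of 10290 genes kept in all, while Cd68 was not analysed here. In the comparisons among pro-B arrays 23 of the 24 could be tested out of 9687 genes, since Csf3r was kept only with the T cell arrays included.

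Neutrophils and monocytes arise from common bone marrow progenitors. Neutrophil precursors first fill primary (azurophil) granules with myeloperoxidase and serine proteases, then secondary granules with lactoferrin and antimicrobial peptides, whereas macrophages are known for lysosomal enzymes, receptors for antibody Fc parts and the receptor for the growth factor M-CSF. The transcription factors PU.1 and C/EBP drive many of these genes. B cell progenitors also express some myeloid receptors, such as Fcgr2b, the inhibitory Fc receptor of B cells, so not every gene of the set is foreign to a B lineage culture. Bone marrow grown with Flt3 ligand and SCF can hold myeloid as well as lymphoid cells, and in bulk RNA fewer cells of a type and less RNA per cell cannot be told apart.

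Expression was measured on 15 Illumina bead arrays in 5 groups of 3. The 12 pro-B arrays came from mouse bone marrow of mixed C57BL/6 and 129S5 background, age 6-8 weeks, grown for 10 days in medium with SCF, Flt3 ligand and IL-7 at 50 ng/ml each. Their groups are wild type control, Bcl11a-deficient, wild type with Bcl2 overexpression (Bcl2 control), and Bcl2-rescued Bcl11a-deficient (Bcl2-rescued). Bcl11a is a zinc finger factor needed for B cell development, and Bcl2 blocks cell death. The titles mark both deficient groups +OHT and both controls -OHT, so OHT and the deletion cannot be told apart, and the labels do not say how Bcl2 was introduced. The last group, DN3 (an early T cell stage), is labelled Bcl11bCKO/CKO lymphocytes of strain C57B7, also 6-8 weeks, and carries the same culture protocol text. Nothing in the labels says that replicates were separate animals, although the series text speaks of 3 culture batches, so p-values measure the spread between these arrays.

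Bcl11a itself read 9.57, 9.30 and 10.00 on the control arrays and 11.34, 11.65 and 11.48 on the arrays labelled deficient (normalised log2 intensity, the scale of every level below). It was therefore higher with the deficient label without Bcl2 (log2 fold change 1.87 ± 0.20 SE, adjusted p = 0.00327, limma) and lower with it in the presence of Bcl2 (-0.79 ± 0.20, adjusted p = 0.0123), where controls read 10.84, 11.02 and 10.95 and rescued arrays 9.87, 10.26 and 10.30. Whether the probe lies in the deleted part of the gene is not known here. The group without Bcl2 is called labelled deficient throughout, and every direction drawn from it is that of the label. The lineage labels were borne out in part: 9 to 11 of 13 early B genes were above background on each pro-B array, and all 7 T cell genes that could be tested rose in DN3 (median log2 fold change 8.38). Control replicate 3 was the dimmest pro-B array, with 11473 probes above background against 14946 to 16422 on the other 11. Slide 1 carried replicates 1 and 2 of the groups without Bcl2 and replicate 1 of both Bcl2 groups, slide 2 the other pro-B arrays, and slide 3 all DN3 arrays, so slide and group cannot be told apart for DN3.

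The upstream sequences of the 6 granule genes that were kept, and of Fcgr3, are shown because the results below turn on these genes. The granule genes fell in at least 1 Bcl2 comparison, and Fcgr3 rose in the Bcl2-rescued cultures. Each window holds 250 bases before and 50 after the gene's start, from RefSeq (GRCm38.p6), in the gene's direction. Capitals mark matches, on either strand, to the PU.1 letters GAGGAAGT or the C/EBP letters TTNNGNAA, where N is any base.
Mpo (chr11:87793534-87793833, plus strand): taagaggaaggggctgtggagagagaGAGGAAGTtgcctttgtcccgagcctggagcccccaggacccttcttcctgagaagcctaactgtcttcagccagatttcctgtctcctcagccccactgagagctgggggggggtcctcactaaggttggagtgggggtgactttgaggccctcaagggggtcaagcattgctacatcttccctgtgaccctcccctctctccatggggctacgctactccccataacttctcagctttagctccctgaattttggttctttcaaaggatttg
Elane (chr10:79886062-79886361, plus strand): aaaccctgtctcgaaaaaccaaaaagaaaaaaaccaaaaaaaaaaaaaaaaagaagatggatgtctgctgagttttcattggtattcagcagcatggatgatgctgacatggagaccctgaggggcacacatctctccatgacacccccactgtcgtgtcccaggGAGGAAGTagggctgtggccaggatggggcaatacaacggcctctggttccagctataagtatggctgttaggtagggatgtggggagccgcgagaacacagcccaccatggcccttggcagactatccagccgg
Prtn3 (chr10:79879417-79879716, plus strand): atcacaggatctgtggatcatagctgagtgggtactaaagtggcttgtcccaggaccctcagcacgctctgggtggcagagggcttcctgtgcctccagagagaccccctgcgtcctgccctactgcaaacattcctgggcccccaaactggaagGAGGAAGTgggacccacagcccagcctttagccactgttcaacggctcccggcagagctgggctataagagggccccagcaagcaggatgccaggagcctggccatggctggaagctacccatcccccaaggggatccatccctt
Ctsg (chr14:56102525-56102824, minus strand): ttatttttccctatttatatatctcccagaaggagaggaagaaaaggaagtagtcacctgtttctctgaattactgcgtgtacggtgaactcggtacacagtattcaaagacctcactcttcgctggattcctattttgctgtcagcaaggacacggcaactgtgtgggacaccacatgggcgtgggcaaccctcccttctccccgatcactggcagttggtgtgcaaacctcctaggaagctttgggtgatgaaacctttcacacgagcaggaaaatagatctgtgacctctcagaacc
S100a8 (chr3:90668821-90669120, plus strand): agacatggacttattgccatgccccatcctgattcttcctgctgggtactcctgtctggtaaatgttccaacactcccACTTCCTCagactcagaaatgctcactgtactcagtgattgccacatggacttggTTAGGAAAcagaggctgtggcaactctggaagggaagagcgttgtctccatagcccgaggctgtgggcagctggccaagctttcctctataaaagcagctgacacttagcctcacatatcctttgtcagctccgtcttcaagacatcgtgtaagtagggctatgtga
Ltf (chr9:111019042-111019341, plus strand): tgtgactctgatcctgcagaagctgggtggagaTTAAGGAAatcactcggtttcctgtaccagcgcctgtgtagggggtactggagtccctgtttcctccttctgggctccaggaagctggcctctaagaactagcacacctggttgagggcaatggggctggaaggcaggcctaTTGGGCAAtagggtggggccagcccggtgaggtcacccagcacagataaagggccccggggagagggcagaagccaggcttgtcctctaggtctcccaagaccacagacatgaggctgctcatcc
Fcgr3 (chr1:171059354-171059653, minus strand): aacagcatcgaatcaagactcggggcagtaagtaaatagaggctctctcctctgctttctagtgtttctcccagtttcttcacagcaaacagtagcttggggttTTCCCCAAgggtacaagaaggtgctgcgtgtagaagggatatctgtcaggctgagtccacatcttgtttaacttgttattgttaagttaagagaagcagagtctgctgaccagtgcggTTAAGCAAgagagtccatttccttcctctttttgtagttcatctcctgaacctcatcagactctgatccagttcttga

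A PU.1 match was present in the windows of Mpo, Elane, Prtn3 and S100a8, with its first base 224, 85, 95 and 172 bases before the start. Among 32851 windows of the same length 3.2% held these letters, and of the 19 kept genes with a window 4 did. The C/EBP letters occurred in 40.7% of all windows and in 8 of the 19. Fcgr3 and Ltf held 2 C/EBP matches each and no PU.1 match, and the window of Ctsg held neither motif. A match is a description of letters and was not tested as a binding site.

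**Figure D1:**
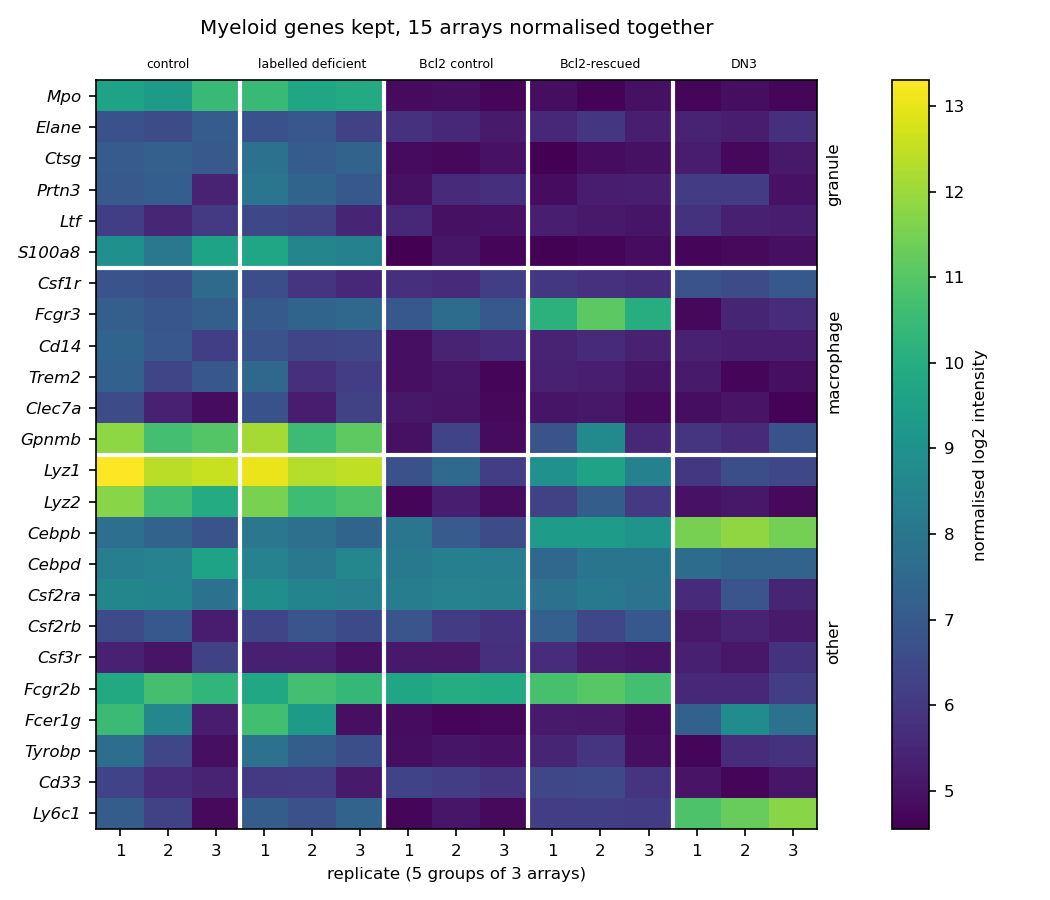
Normalised log2 intensity (colour) of the 24 kept myeloid genes on 15 arrays normalised together, with genes in rows grouped as granule, macrophage and other, and arrays in columns grouped by sample group. The Mpo and S100a8 rows are bright on the 6 arrays without Bcl2 and dark on the 6 Bcl2 arrays, while Fcgr3 is brightest on the 3 Bcl2-rescued arrays.

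Of the 5 primary granule genes, 4 were above background in cultures without Bcl2, and all 4 were at or near background in cultures with it. Mpo, the peroxidase of primary granules, read 9.88, 9.59 and 10.74 on the control arrays and 10.76, 10.00 and 10.16 on the labelled deficient arrays. On the Bcl2 control arrays it read 4.91, 5.0 and 4.79, and on the Bcl2-rescued arrays 5.0, 4.72 and 5.05, with none of the 6 above background. All 6 arrays without Bcl2 lay above all 6 with it, and the labelled deficient and control arrays overlapped. Mpo was at least 19.3-fold lower with Bcl2 in the control state (adjusted p = 2.13e-06) and at least 24.3-fold lower in the labelled deficient state (adjusted p = 1.02e-07). Of its 4 kept probes 2 passed in the first of these, with differences from -5.17 to -0.52, and all 4 in the second. Here and below, "at least" sets the bright group against the lowest signal that still counts as detected, because the dim group is below background on all 3 arrays, and adjusted p-values come from limma with Benjamini-Hochberg adjustment over all genes.

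Ctsg, cathepsin G, read 7.31, 7.47 and 7.23 in control and 8.06, 7.32 and 7.59 in labelled deficient cultures. It lay between 4.65 and 5.09 on the 6 Bcl2 arrays, below background on each. Its groups without Bcl2 did not overlap with those with Bcl2, and it was at least 2.91-fold lower in the control state (adjusted p = 4.83e-05) and at least 3.87-fold lower in the labelled deficient state (adjusted p = 1.28e-06). Elane, neutrophil elastase, read 6.99, 6.78 and 7.35 in control, 6.97, 7.14 and 6.46 in labelled deficient, 5.97, 5.68 and 5.32 in Bcl2 control and 5.67, 6.14 and 5.42 in Bcl2-rescued cultures. Again no Bcl2 array reached the arrays without Bcl2, and Elane fell by 1.38 ± 0.26 in the control state (adjusted p = 0.00804) and fell by 1.12 ± 0.26 in the labelled deficient state (adjusted p = 0.00527) on the log2 scale.

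Prtn3, proteinase 3, is the neighbour of Elane on chromosome 10. It read 7.21, 7.41 and 5.53 in control and 8.25, 7.60 and 7.17 in labelled deficient cultures, then 5.06, 5.78 and 5.93 in Bcl2 control and 4.96, 5.40 and 5.43 in Bcl2-rescued cultures. The low control value is that of the dim array, replicate 3, which overlapped with the Bcl2 controls. Prtn3 was at least 3.92-fold lower with Bcl2 in the labelled deficient state (adjusted p = 0.00143). In the control state the difference of -1.13 ± 0.45 did not pass (adjusted p = 0.16), and without control replicate 3 it was -1.77 ± 0.33 and passed (adjusted p = 0.00487). Ms4a3, a membrane protein of granulocyte-monocyte progenitors, was above background on no control array and on at most 2 of 15 arrays with either probe, and was not tested.

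Of the 8 secondary granule and cytosolic granulocyte genes in the granule list, only S100a8 and Ltf could be tested. S100a8, a subunit of the cytosolic protein calprotectin, read 9.19, 8.30 and 9.88 in control and 9.96, 8.77 and 8.66 in labelled deficient cultures, against 4.63 to 5.22 on the 6 Bcl2 arrays. None of those 6 was above background, and no group with Bcl2 overlapped with one without it. It was at least 9.98-fold lower with Bcl2 in the control state (adjusted p = 0.000123) and at least 10.8-fold lower in the labelled deficient state (adjusted p = 9.66e-06). Its partner subunit gene and neighbour S100a9 was above background on 1 of 15 arrays, in the labelled deficient group, and so was Lcn2 (lipocalin 2).

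Ltf, lactoferrin of secondary granules, read 6.39, 5.67 and 6.23 in control, 6.65, 6.43 and 5.61 in labelled deficient, 5.72, 5.08 and 5.09 in Bcl2 control and 5.44, 5.29 and 5.18 in Bcl2-rescued cultures. These values are close to background, which Ltf exceeded on only 3 arrays. In the labelled deficient state it was at least 1.44-fold lower with Bcl2 (adjusted p = 0.0245), a call that was lost without Bcl2-rescued replicate 2 (adjusted p = 0.0637) or 3 (adjusted p = 0.0789). Ngp, Camp and Mmp8 were above background on no array, and Mmp9 (gelatinase B) on 2. Thus 7 of the 13 granule genes were above background on fewer than 3 arrays and were not kept. The 6 that were kept hold primary granule proteases and the peroxidase more than secondary granule proteins. Anxa1, a granulocyte gene outside the granule list, was above background on no array and was not tested.

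The lysozymes were far above background in cultures without Bcl2 and fell with it. Lyz1, a bactericidal enzyme of myeloid cells and Paneth cells, read 13.56, 12.66 and 12.83 in control and 13.32, 12.59 and 12.72 in labelled deficient cultures. It read 6.95, 7.80 and 6.35 in Bcl2 control and 9.22, 9.87 and 8.66 in Bcl2-rescued cultures. Bcl2 control was thus lowest, Bcl2-rescued lay between it and the groups without Bcl2, and only those last groups overlapped with each other. With Bcl2, Lyz1 fell by 5.99 ± 0.41 in the control state (adjusted p = 1.45e-05) and fell by 3.63 ± 0.41 in the labelled deficient state (adjusted p = 3.83e-05). Between the Bcl2 groups it was higher with the deficient label by 2.22 ± 0.41 (adjusted p = 0.00212).

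Lyz2, the lysozyme of macrophages and neutrophils, lies next to Lyz1 and is a near-identical copy, so signal may be shared between their probes and the values of both are uncertain. It read 12.02, 10.89 and 10.21 in control, 11.80, 10.84 and 11.12 in labelled deficient, 4.77, 5.42 and 4.96 in Bcl2 control and 6.49, 7.36 and 6.18 in Bcl2-rescued cultures. The order of the groups was that of Lyz1. It was at least 37.8-fold lower with Bcl2 in the control state (adjusted p = 2.34e-05) and fell by 4.58 ± 0.44 in the labelled deficient state (adjusted p = 1.31e-05). In the Bcl2-rescued cultures Lyz2 was at least 1.83-fold higher than in Bcl2 control (adjusted p = 0.0194), and this call was lost without Bcl2 control replicate 1 or 3 or Bcl2-rescued replicate 2 (adjusted p = 0.0733, 0.0563 and 0.0923). Its second kept probe gave 0.04 for that comparison and did not pass. For Bcl2 that probe gave much smaller falls, -1.09 among controls and -0.90 among labelled deficient cultures, and both passed.

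**Figure D2:**
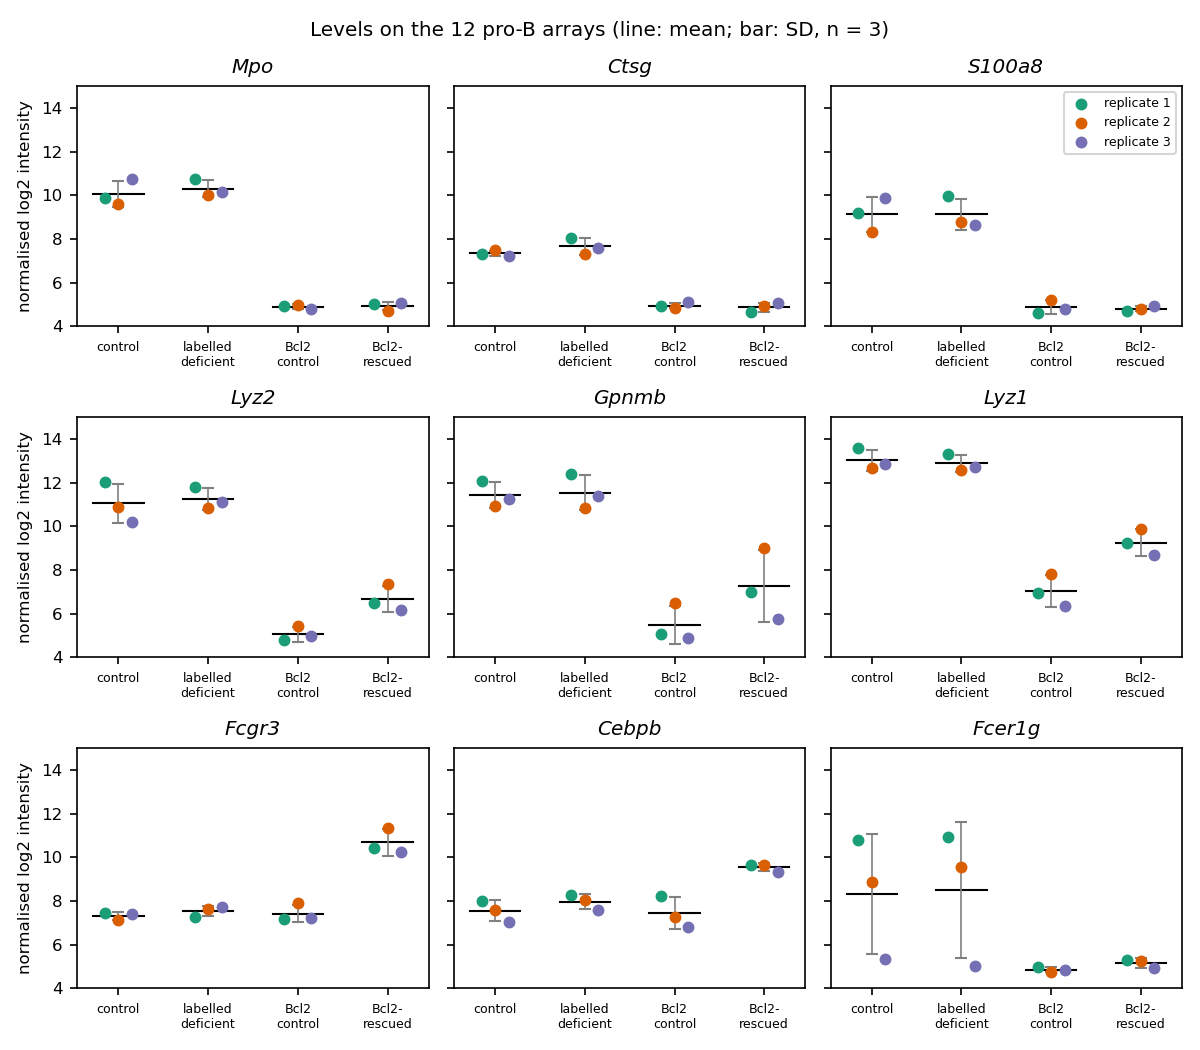
Normalised log2 intensity of 9 myeloid genes on the 12 pro-B arrays, with a point for each replicate, a line for the group mean and a bar for the SD (n = 3). Mpo, Ctsg and S100a8 sit near 5 on every Bcl2 array, the Bcl2-rescued means of Lyz1, Lyz2 and Gpnmb lie between Bcl2 control and the groups without Bcl2, Fcgr3 and Cebpb are highest there, and Fcer1g is high only in replicates 1 and 2 without Bcl2.

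Among the C/EBP factors, which bind myeloid promoters and enhancers, only Cebpb and Cebpd were kept. Cebpb read 8.01, 7.58 and 7.04 in control, 8.28, 8.04 and 7.60 in labelled deficient, 8.24, 7.28 and 6.81 in Bcl2 control and 9.66, 9.64 and 9.34 in Bcl2-rescued cultures. The Bcl2-rescued arrays lay above all 9 others, which overlapped. Cebpb was higher in them than in Bcl2 control by 2.10 ± 0.35 (adjusted p = 0.00112) and than in labelled deficient cultures without Bcl2 by 1.58 ± 0.35 (adjusted p = 0.00387).

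Cebpd read 8.56, 8.69 and 9.88 in control, 8.70, 8.30 and 8.87 in labelled deficient, 8.34, 8.59 and 8.55 in Bcl2 control and 7.76, 8.20 and 8.22 in Bcl2-rescued cultures. Its differences among the pro-B groups did not pass, the largest being -0.56 ± 0.31 for Bcl2 in the labelled deficient state (adjusted p = 0.178). Cebpa, the factor of the granulocyte-monocyte progenitor, was above background on none of the 15 arrays, and Cebpe, the factor of late granulocyte maturation, on at most 2 with any of its 4 probes.

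Of the growth factor receptors, Csf1r and Csf2ra each passed in 1 comparison among pro-B groups. Csf1r, the M-CSF receptor, read 7.02, 6.86 and 7.82 in control, 6.86, 6.08 and 5.67 in labelled deficient, 5.92, 5.80 and 6.36 in Bcl2 control and 6.15, 5.97 and 5.87 in Bcl2-rescued cultures. The control arrays were highest and did not overlap with the Bcl2 controls. Csf1r fell by 1.21 ± 0.32 with Bcl2 in the control state (adjusted p = 0.0397), but this passed under only 10 of 24 alternative settings. It was lost without control replicate 1 (adjusted p = 0.0523) or 3 (0.0514), without Bcl2 control replicate 1 (0.124), 2 (0.126) or 3 (0.0643), without labelled deficient replicate 2 (0.0571) and without Bcl2-rescued replicate 1 (0.0597), 2 (0.061) or 3 (0.0609).

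Csf2ra, the specific chain of the GM-CSF receptor, read 8.84, 8.74 and 8.08 in control, 9.17, 8.76 and 8.62 in labelled deficient, 8.50, 8.69 and 8.62 in Bcl2 control and 8.10, 8.33 and 8.15 in Bcl2-rescued cultures. The Bcl2-rescued arrays lay just below the labelled deficient ones, a fall of 0.65 ± 0.22 (adjusted p = 0.0311) that was lost without labelled deficient replicate 1 (adjusted p = 0.129) or 2 (0.0537) or Bcl2-rescued replicate 1 (0.0946) or 3 (0.0864). Csf2rb, the shared signalling chain of the GM-CSF, IL-3 and IL-5 receptors, ranged from 5.37 to 7.46 and passed in no comparison among pro-B arrays. Csf3r, the G-CSF receptor of neutrophils, was above background on none of the 3 control arrays and on 1 of the 3 DN3 arrays.

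Fcgr3 was high only on the Bcl2-rescued arrays. This activating Fc gamma receptor of macrophages, neutrophils and natural killer cells read 7.44, 7.12 and 7.42 in control, 7.28, 7.62 and 7.74 in labelled deficient, 7.18, 7.88 and 7.21 in Bcl2 control and 10.42, 11.36 and 10.25 in Bcl2-rescued cultures. The first 3 groups overlapped, and the Bcl2-rescued arrays lay above all 9 of their arrays. The difference was 3.25 ± 0.29 against Bcl2 control (adjusted p = 1.38e-05) and 3.13 ± 0.29 against labelled deficient cultures without Bcl2 (adjusted p = 1.01e-05). Within slide 1 the first difference was 3.24 ± 0.29 (adjusted p = 0.0159) and within slide 2 it was 3.26 ± 0.38 (adjusted p = 0.00137). Slide 1 has 1 array of each Bcl2 group, so its test takes the spread from the groups without Bcl2.

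Fcgr2b, the inhibitory receptor that B cells share with myeloid cells, read 10.12, 10.97 and 10.57 in control, 10.02, 10.96 and 10.65 in labelled deficient, 10.00, 10.23 and 10.17 in Bcl2 control and 11.02, 11.28 and 10.96 in Bcl2-rescued cultures. It was bright in every pro-B group, and the Bcl2-rescued arrays lay above the Bcl2 controls by 0.95 ± 0.26 (adjusted p = 0.0192). Of its 4 kept probes only this one passed, and the lowest read -0.08, so the probes disagree in sign. The call was also lost without Bcl2-rescued replicate 1 (adjusted p = 0.0502) or 2 (0.0771) or Bcl2 control replicate 1 (0.0694).

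The adaptors that pass on signals from activating receptors showed large spread between replicates. Tyrobp (DAP12), the adaptor of Trem2, read 7.95, 6.61 and 5.02 in control, 8.05, 7.38 and 6.89 in labelled deficient, 5.0, 5.19 and 5.10 in Bcl2 control and 5.62, 6.05 and 5.04 in Bcl2-rescued cultures. It fell by 1.87 ± 0.58 with Bcl2 in the labelled deficient state (adjusted p = 0.0238), a call lost without labelled deficient replicate 1 (adjusted p = 0.0925) or 2 (0.053) or Bcl2-rescued replicate 1 (0.0582) or 3 (0.09). In the control state the difference was -1.43 ± 0.58 and did not pass (adjusted p = 0.161), and it passed at -2.24 ± 0.43 without the dim control replicate 3 (adjusted p = 0.00559).

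Fcer1g, the signalling chain that Fcgr3 and the high-affinity IgE receptor need, read 10.77, 8.85 and 5.34 in control and 10.92, 9.57 and 5.01 in labelled deficient cultures. On the Bcl2 arrays it read 4.96, 4.75 and 4.86 in control and 5.31, 5.27 and 4.91 in Bcl2-rescued cultures. Replicate 3 of both groups without Bcl2 was at background together with all 6 Bcl2 arrays, so no difference passed (adjusted p = 0.168 among controls and 0.085 among labelled deficient cultures). Without control replicate 3 the first passed (-5.03 ± 1.32, adjusted p = 0.0232), and without control or labelled deficient replicate 3 the second did (adjusted p = 0.0315 and 0.00688). The bright Fcgr3 of the Bcl2-rescued cultures was therefore measured on arrays where Fcer1g was below background.

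Among macrophage membrane and surface genes Gpnmb, Cd14 and Trem2 were lower with Bcl2. Gpnmb, a lysosomal membrane glycoprotein of macrophages, read 12.08, 10.94 and 11.24 in control, 12.39, 10.83 and 11.38 in labelled deficient, 5.05, 6.50 and 4.90 in Bcl2 control and 7.01, 9.01 and 5.74 in Bcl2-rescued cultures. Every array without Bcl2 lay above every Bcl2 array, whereas the Bcl2 groups overlapped. It fell by 5.93 ± 0.73 with Bcl2 in the control state (adjusted p = 0.000733) and fell by 4.28 ± 0.73 in the labelled deficient state (adjusted p = 0.000761). Of its 3 kept probes 1 passed in the first of these and all 3 in the second. Between the Bcl2 groups the difference of 1.77 ± 0.73 did not pass (adjusted p = 0.105). It passed with pairs of the same replicate number as a block (1.77 ± 0.29, adjusted p = 0.00417) and without Bcl2-rescued replicate 3 (2.51 ± 0.68, adjusted p = 0.0285). The other kept Gpnmb probes gave 0.32 and -0.27 between the Bcl2 groups, so the probes disagree in sign.

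Cd14, the co-receptor for lipopolysaccharide, read 7.60, 7.17 and 6.39 in control, 7.0, 6.58 and 6.63 in labelled deficient, 5.01, 5.58 and 5.75 in Bcl2 control and 5.56, 5.76 and 5.51 in Bcl2-rescued cultures. It was at least 2.38-fold lower with Bcl2 in the control state (adjusted p = 0.00648) and fell by 1.12 ± 0.29 in the labelled deficient state (adjusted p = 0.00948), with no overlap in either. Trem2, a lipid-sensing receptor of macrophages, read 7.49, 6.60 and 7.14 in control, 7.76, 5.90 and 6.32 in labelled deficient, and 4.81 to 5.49 on the 6 Bcl2 arrays. It was at least 2.42-fold lower in the control state (adjusted p = 0.0094) and at least 1.94-fold lower in the labelled deficient state (adjusted p = 0.0234). The second call was lost without labelled deficient replicate 1 (adjusted p = 0.0579) or Bcl2-rescued replicate 1 (0.0508), 2 (0.0549) or 3 (0.0771).

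The remaining surface genes passed in no comparison among pro-B groups. Clec7a (Dectin-1), a receptor for fungal glucan, read 6.82, 5.51 and 4.96 in control, 6.97, 5.37 and 6.48 in labelled deficient and 4.84 to 5.25 on the Bcl2 arrays. Ly6c1, an antigen of monocytes and also of some lymphocytes, read 7.36, 6.45 and 4.89 in control, 7.36, 6.93 and 7.58 in labelled deficient, 4.75, 5.22 and 4.89 in Bcl2 control and 6.35, 6.36 and 6.29 in Bcl2-rescued cultures. The Bcl2 groups did not overlap, yet the difference of 1.38 ± 0.47 missed the threshold (adjusted p = 0.0502). It passed without the dim control replicate 3, at 1.42 ± 0.24 (adjusted p = 0.000881), or without control replicate 1, at 1.38 ± 0.34 (adjusted p = 0.012). Cd33, a sialic acid receptor, lay between 5.32 and 6.71 on all 12 arrays. The integrin chains Itgam and Itgax and the oxidase subunit Cybb were above background on no array with any probe, and Adgre1 (named Emr1 in the platform table) on at most 2.

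Taken comparison by comparison, none of the 23 genes passed for the deficient label without Bcl2. With 3 arrays per group this does not show that they were unchanged. With limma 0 passed, and 2 were under an unadjusted p of 0.05 (Csf1r at -1.03 ± 0.32 and Ly6c1 at 1.05 ± 0.47). These values rest on 1 probe per gene. The 4 kept Mpo probes ranged from 0.24 to 1.04 and none passed, and the probe used gave the lowest value. Of all 9687 genes 0.031% passed, 0.0103% higher and 0.0206% lower, and 6% were under the unadjusted p. The series matrix scores and the fits with a block also gave 0. Within slide 2, where each group without Bcl2 has 1 array and the control is the dim one, 8 passed, among them Ly6c1 (2.69) and Csf1r (-2.15), and within slide 1 none did.

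With Bcl2, the deficient label went with 5 of 23 genes higher and 0 lower: Fcgr3, Lyz1, Cebpb, Lyz2 and Fcgr2b. Over all genes 25% passed, 12.8% higher and 12.3% lower, so the 21.7% called among the 23 is near the background of this comparison. On the same arrays 11 of 11 tested S phase genes were lower (median -2.35), 6 of 9 conventional dendritic cell genes were higher (median 2.09), 3 of 7 plasmacytoid dendritic cell genes were higher (median 0.48) and 4 of 10 early B genes were higher (median 0.64). The summed intensity of 12 S phase genes was 7389 to 7670 on the Bcl2-rescued arrays against 32491 to 37328 on the Bcl2 controls, and that of 12 conventional dendritic cell genes was 18704 to 24558 against 3702 to 5619. The part of these differences in the myeloid genes was not tested.

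The label effects with and without Bcl2 differed for Fcgr3 (interaction 3.03 ± 0.41, adjusted p = 0.000799) and Lyz1 (2.36 ± 0.57, adjusted p = 0.0225), 2 of 23 genes (8.7%), where 10.8% of all genes passed, 4.64% upward and 6.17% downward. For Fcgr3 it passed under 23 of 24 alternatives and was lost with the deposited scores (adjusted p = 0.368). The interaction of Lyz1 passed under 15 of 24. It turned sign with the deposited scores (-0.0893, adjusted p = 0.972), was lost within slide 1 (adjusted p = 0.197) and within slide 2 (adjusted p = 0.0892), and was lost without labelled deficient replicate 2 (adjusted p = 0.0544) or 3 (0.0584), Bcl2 control replicate 1 (0.0568) or 3 (0.0504), or Bcl2-rescued replicate 1 (0.0561) or 2 (0.061). With same-numbered pairs as a block 6 genes passed, the added ones being Cebpb (1.68 ± 0.32, adjusted p = 0.0165), Fcgr2b (0.96 ± 0.20, adjusted p = 0.0225), Lyz2 (1.41 ± 0.35, adjusted p = 0.0413) and Gpnmb (1.65 ± 0.42, adjusted p = 0.0425). The kept Gpnmb probes ranged from -0.20 to 1.65 for the interaction, and the one used gave the highest value.

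In the control state, Bcl2 arrays had 10 of 23 genes lower and 0 higher (43.5% of the 23), against 8.13% of all genes called, 4.28% higher and 3.85% lower. The 10 were Mpo, Elane, Ctsg and S100a8 of the granule list, Gpnmb, Cd14, Trem2 and Csf1r of the macrophage list, and both lysozymes. Because the filter keeps genes seen on 3 arrays, 11 of the 23, all 6 granule genes among them, were kept only through arrays without Bcl2, and for such genes a lower value with Bcl2 is built into the choice. Of the other 12, which were above background on 3 or more arrays of each kind, 4 were lower: Lyz1, Lyz2, Gpnmb and Csf1r. Within slide 1 only 2 of 23 passed, Mpo (-4.82 ± 0.37, adjusted p = 0.0496) and Lyz1 (-6.16 ± 0.50, adjusted p = 0.0496), and within slide 2 there were 12. Slide 1 has 1 Bcl2 control array and slide 2 has 1 control array, the dim replicate 3, so these tests assume that a lone array varies like the other groups. With the slide as a block 10 passed.

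In the labelled deficient state, 13 of 23 genes were lower with Bcl2 and 2 higher (65.2%), against 39.5% of all genes called, 18.2% lower and 21.3% higher. All 6 granule genes fell, as did Gpnmb, Cd14 and Trem2, both lysozymes, Tyrobp and Csf2ra, while Fcgr3 and Cebpb rose. Of the 13 that fell, 9 were kept only through arrays without Bcl2, all 6 granule genes among them. For these a lower value with Bcl2 is built into the choice, so the share of 65.2% is not a free count. Of the 12 genes above background on both kinds of array, 4 fell and 2 rose. S phase genes were again lower in 11 of 11 (median -2.96), and their part in these differences was not tested. Within slide 1 and within slide 2, 12 and 16 genes passed, and 17 did so with the slide as a block. Slide 1 has 1 Bcl2-rescued array and slide 2 has 1 labelled deficient array, so the within-slide tests again rest on a lone array in 1 arm. The 2 Bcl2 comparisons use different arrays, and each shares a group with both label comparisons.

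**Figure D3:**
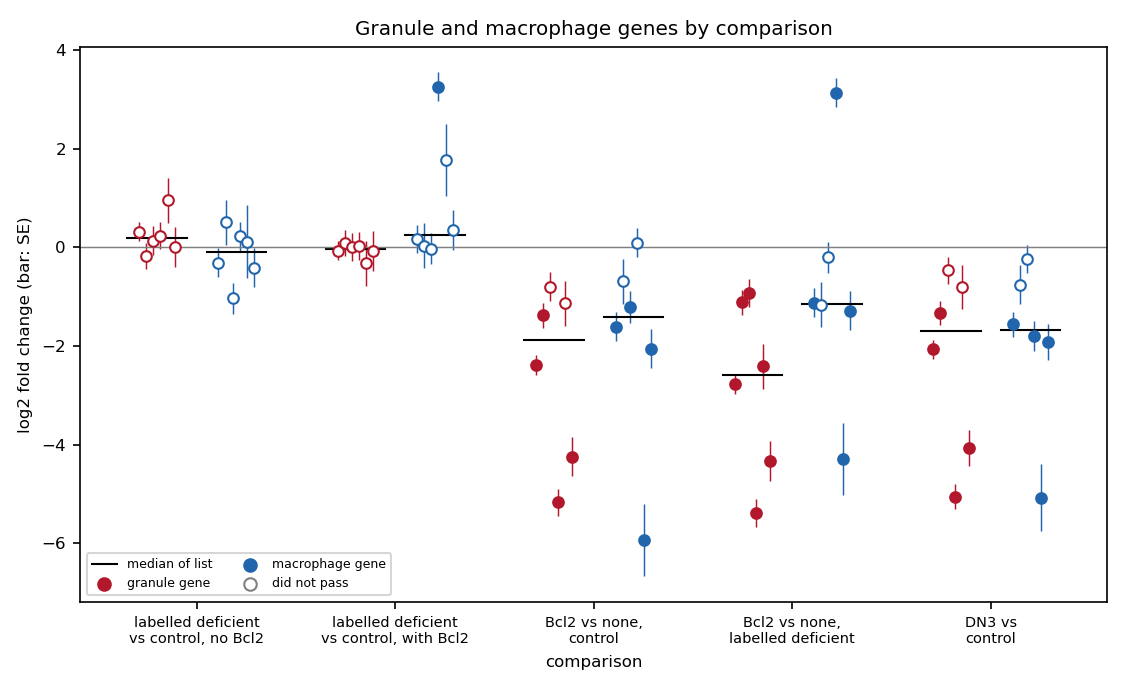
Log2 fold change (points, bars show the SE) of the 6 granule and 6 macrophage genes in 5 comparisons, with filled points for genes that passed and a line for each list's median. All granule points lie below 0 in both Bcl2 comparisons, and Fcgr3 is the macrophage point above 3 in the comparisons that involve the Bcl2-rescued group.

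Granule and macrophage genes were set against each other by the medians of their kept members, 6 each, as a description without a test. With the deficient label the medians were 0.19 and -0.10 without Bcl2 and -0.03 and 0.26 with it, where the median of all genes was 0.01 and 0.04. For Bcl2 they were -1.89 and -1.41 among controls, and -2.59 and -1.14 among labelled deficient cultures. All 6 granule genes but only 3 of the 6 macrophage genes were kept only through arrays without Bcl2. The choice of genes itself can therefore set the granule median lower in the Bcl2 comparisons. The interaction medians were -0.17 and 0.88. Of the kept granule genes, Mpo, Ctsg, S100a8 and Ltf were above background on 0 of 6 Bcl2 arrays, and Elane and Prtn3 on 2. A gene below background in both Bcl2 groups can hardly show a label difference there. The granule medians for the label with Bcl2 and for the interaction are limited by this. For Bcl2 among controls the order turns without the detection filter, where all 13 granule and 10 macrophage genes enter and the medians are -0.39 and -0.58. In the labelled deficient state granule genes stayed the lower list without the filter (-0.87 against -0.36).

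The summed intensity of the lists was also compared by array. The 13 granule genes summed to 1362 to 2631 in control, 1764 to 3043 in labelled deficient, 208 to 249 in Bcl2 control and 189 to 244 in Bcl2-rescued cultures, where the Bcl2 groups overlapped. The 10 macrophage genes summed to 2078 to 4252, 1898 to 5100, 278 to 403 and 1200 to 2757 in the same order. Bcl2-rescued arrays thus lay above Bcl2 controls for the macrophage sum and not for the granule sum. Of the 13 granule genes, 1 was above background on each Bcl2 control array and 0 to 2 on the Bcl2-rescued arrays. The granule sums of both groups are thus mostly background and could hardly show a difference. Fcgr3 alone made up 79.8%, 78.7% and 83.3% of the macrophage sum on the 3 Bcl2-rescued arrays. Without it, a choice made after seeing the data, the sums were 286, 587 and 201 against 170, 220 and 192 in Bcl2 control, and the groups overlapped. Most of the macrophage sum on the Bcl2-rescued arrays is therefore that of 1 gene. Without that gene, Bcl2-rescued replicates 1 and 2 still lay above all 3 Bcl2 controls, and the remaining difference was not tested.

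Compared with control pro-B arrays, DN3 arrays had 15 of 24 genes lower and 2 higher (70.8%), where 45.2% of all genes were called, 24.3% lower and 20.9% higher. Levels in this comparison come from all 15 arrays normalised together. The filter asks for 3 of these 15, of which 12 are pro-B arrays. For genes kept only through pro-B arrays a lower DN3 value is built into the choice. Of the genes called lower, Lyz1 and Cebpd were above background on all 3 DN3 arrays, and the rest were not. Mpo read 4.70, 4.89 and 4.68 in DN3 against 9.62, 9.33 and 10.47 in control cultures, at least 16.5-fold lower (adjusted p = 2.25e-09). Lyz1 read 5.97, 6.65 and 6.44 against 13.30, 12.39 and 12.57, a fall of 6.40 ± 0.38 (adjusted p = 1.07e-08). Fcgr2b fell by 4.56 ± 0.26 (adjusted p = 6.7e-09), from 9.86, 10.70 and 10.31 to 5.52, 5.54 and 6.13, and 3 of its 4 probes passed.

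The other genes lower in DN3 were Lyz2 (at least 32.3-fold), S100a8 (at least 8.57-fold), Ctsg (at least 2.53-fold), Elane, Gpnmb, Cd14, Trem2, Fcgr3, Csf2ra, Cebpd, Cd33 and Csf2rb. The calls of the last 2 were fragile: Csf2rb passed under 7 of 22 alternatives and Cd33 under 16 of 22, and Cd33 turned sign with the deposited scores (0.33). Csf2rb (adjusted p = 0.0463) was lost on leaving out any 1 of 11 arrays, with adjusted p-values from 0.0516 to 0.191, and kept only without control replicate 3, Bcl2 control replicate 1 or 3 or Bcl2-rescued replicate 2. Cd33 (adjusted p = 0.0277) was lost without control replicate 1 (adjusted p = 0.124) or DN3 replicate 1 (0.0522) or 2 (0.0971). For Lyz2 the second kept probe gave only -0.55 in DN3 and did not pass.

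Against this trend, Cebpb and Ly6c1 were higher in DN3. Cebpb read 11.49, 11.84 and 11.48 in DN3 against 7.76, 7.34 and 6.82 in control cultures, a rise of 4.30 ± 0.32 (adjusted p = 1.04e-07). Ly6c1 read 10.86, 11.27 and 11.75 against 7.13, 6.25 and 4.79, a rise of 5.24 ± 0.43 (adjusted p = 2.84e-07). Fcer1g was above background on all 3 DN3 arrays, at 7.28, 8.81 and 7.86, where control arrays ranged from 5.21 to 10.50, and the difference did not pass (adjusted p = 0.95). Csf1r read 6.81, 6.55 and 6.96 in DN3 and 6.80, 6.64 and 7.58 in control cultures. Strain, genotype, tissue, slide and background subtraction all differ between DN3 and pro-B arrays and cannot be told apart here.

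Other myeloid genes, taken from lists of 19 further granulocyte and 40 further monocyte and macrophage genes, were followed beside the set. Of 28 tested monocyte and macrophage genes, 0 passed for the label without Bcl2 and 5 were higher for the label with Bcl2 (17.9%, against 12.8% of all genes higher and 25% called). The 3 with the smallest p were the chemokines Ccl4 (3.29 ± 0.30, adjusted p = 1.58e-05) and Ccl9 (3.89 ± 0.42, adjusted p = 5.61e-05) and the lectin Lgals3 (3.24 ± 0.42, adjusted p = 0.000191). These 3 also passed the interaction, by 3.26, 3.52 and 3.08. Like Fcgr3, they lay higher in Bcl2-rescued than in Bcl2 control cultures, but the list's median was 0.15.

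With Bcl2 in the control state, 7 of the 28 were lower, led by Lgals3 (-4.46 ± 0.42, adjusted p = 0.000116), the complement gene C1qc (at least 3.49-fold lower, adjusted p = 0.00169) and Ccl9 (-2.97 ± 0.42, adjusted p = 0.00172), and 1 was higher (25% lower, against 3.85% of all genes). The filter of 3 arrays applies to both further lists as well. For genes kept only through arrays without Bcl2, a lower value with Bcl2 is built into the choice. The same holds in DN3 for genes kept only through pro-B arrays. How many genes were kept in these ways was not counted. In the labelled deficient state 7 of the 28 were lower and 3 higher (25% and 10.7%, against 18.2% and 21.3% of all genes). Ccl4 was higher by 2.97 ± 0.30 (adjusted p = 1.86e-05), C1qc was at least 3.68-fold lower (adjusted p = 0.000226), and the mannose receptor Mrc1 fell by 1.72 ± 0.29 (adjusted p = 0.000665). In DN3, 15 of 29 were lower (51.7%, against 24.3% of all genes) and 2 higher, led by Alox5ap (-1.61 ± 0.14, adjusted p = 7.44e-07), Irf8 (-3.12 ± 0.33, adjusted p = 3.49e-06) and Ncf4 (-1.76 ± 0.19, adjusted p = 4.37e-06).

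Of 19 further granulocyte genes only 7 could be tested among pro-B arrays, and none passed for the label without Bcl2. With 7 genes, 1 call is 14.3% of the list. Over all genes 12.8% were higher and 12.3% lower for the label with Bcl2. For Bcl2 the shares were 4.28% and 3.85% among controls, and 21.3% and 18.2% among labelled deficient cultures. With Bcl2, the label went with lower Gfi1 (-1.31 ± 0.19, adjusted p = 0.000511), a repressor needed for neutrophil development that lymphoid progenitors also use, lower Serpinb1a (-0.91 ± 0.22, adjusted p = 0.0102), an inhibitor of granule proteases, and Ltb4r1 at least 1.35-fold higher (adjusted p = 0.0116). Bcl2 in the control state went with Hp at least 1.20-fold lower (adjusted p = 0.0358) and Gfi1 higher by 0.74 ± 0.19 (adjusted p = 0.0392). In the labelled deficient state Gfi1 (-0.59 ± 0.19, adjusted p = 0.03) and Serpinb1a (-0.67 ± 0.22, adjusted p = 0.0301) were lower and Pglyrp1 was higher (0.54 ± 0.18, adjusted p = 0.0332). In DN3, 4 of 8 were higher (50%, against 20.9% of all genes) and 2 lower (25%, against 24.3%). They were led by Mgst1 (-4.40 ± 0.31, adjusted p = 5.56e-08), Serpinb1a (-3.31 ± 0.28, adjusted p = 3.65e-07) and Gfi1 (1.52 ± 0.18, adjusted p = 1.02e-05).

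Markers of other cells were followed beside the myeloid genes. Over all genes 12.8% were higher and 12.3% lower for the label with Bcl2. For Bcl2 the shares were 4.28% and 3.85% among controls, and 21.3% and 18.2% among labelled deficient cultures. In DN3 they were 20.9% and 24.3%. Many counts below are near these shares and come from few genes, so they are not read as changes of a cell type. Early B genes were higher with Bcl2 in 4 of 10 in the labelled deficient state, and 1 rose and 1 fell in the control state. Of 7 plasmacytoid dendritic cell genes 1 was lower with Bcl2 in the control state and 1 higher in the labelled deficient one. Of 5 basophil and mast cell genes, 1 was higher for the label with Bcl2 and 1 for Bcl2 in the control state, while the labelled deficient state had 1 higher and 2 lower. The T cell list had 2 tested genes among pro-B arrays, of which 1 was lower in each Bcl2 comparison and 1 higher for the label with Bcl2. The NK list had 3, of which 1 was lower for the label with Bcl2, 1 was higher for Bcl2 among controls, and 1 was higher and 1 lower among labelled deficient cultures. The erythroid and stromal lists had 1 tested gene each, and only the stromal one passed, higher in Bcl2-rescued cultures. Conventional dendritic cell genes were lower with Bcl2 in the control state in 4 of 9 (median -0.82) and higher in 3 of 9 in the labelled deficient state (median 0.78). In DN3, 6 of 11 early B genes fell and 3 rose, 6 of 9 conventional and 2 of 7 plasmacytoid dendritic cell genes fell, 2 of 5 basophil and mast, 3 of 3 NK, 1 of 2 erythroid and 2 of 4 stromal genes rose, and 5 of 11 S phase genes fell and 1 rose. For the label without Bcl2 no gene of any of these lists passed. The part of these markers in the myeloid differences was not tested.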

How the data were processed

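The submitters deposited scanner output of 15 Illumina mouse arrays, in which 45263 probes each carry an intensity and a detection value per array. Per the file headers the intensity table is non-normalized, and its values reach below 0 on the pro-B arrays and not on DN3, so the authors' background subtraction differed between them. The deposited detection value is a fraction that rises with signal, so detection p was taken as 1 minus it. The score in the authors' series matrix is each probe's intensity less its mean and over its SD across 15 arrays (correlation 1), used only as an alternative. The labels name no software for these files. Symbols came from the platform table: 34874 probes had 1 symbol, 18 several and 10371 none listed.

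The signals were background-corrected by detection p with an offset of 16, quantile-normalised and log2-transformed (neqc, limma 3.58.1, R 4.3.3), over 12 pro-B arrays or, for DN3, all 15. Probes with a detection p under 0.05 on at least 3 fitted arrays were kept, 1 per gene (the highest mean). One mean per group was fitted with limma, and p-values were Benjamini-Hochberg adjusted over all genes, with 0.05 as threshold. The fit was tested on simulated data. Arrays had no shared identical signals beyond 0.703% of probes. Same-numbered arrays deviated together within each Bcl2 background (r of 0.23 to 0.39), which pairs them there. Across backgrounds r of same-numbered arrays lay between -0.13 and 0.32. Among controls it was 0.30 for replicate 1, -7.81e-05 for replicate 2 and 0.32 for replicate 3. Control replicate 2 gave 0.28 with Bcl2 control replicate 1, which has another number and is on the same slide. Whether the numbers pair arrays across backgrounds is therefore not clear.

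The members and lists were chosen with earlier results of these data known. All members are named. Full values are given for members that pass in a comparison, with at most 8 per comparison in full, and for members with probes of opposite sign. Of the further lists the 3 passing genes with the smallest p are named per comparison. The alternatives were the normalisation, offset, filter, probes, array weights, slide, replicate block, arrays in the fit, the score and leaving out each array. The number of arrays limits the precision.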

Additional observations from a re-analysis of the deposited data

Results flagged for a closer look

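The effect of the deficient label differed between cultures with and without Bcl2 for Fcgr3, by 3.03 ± 0.41 on the log2 scale (interaction term, limma adjusted p = 0.000799), and all 3 Bcl2-rescued arrays lay above all 3 Bcl2 controls. The same difference for Lyz1 was 2.36 ± 0.57 (adjusted p = 0.0225), and again all 3 Bcl2-rescued arrays lay above all 3 Bcl2 controls. Fcgr3 passed under 23 of 24 alternatives and Lyz1 under 15. With the deposited scores neither passed, and Lyz1 turned sign (-0.0893).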

How the results depend on the processing

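Counts below are of the 23 genes (24 for DN3), and medians are granule minus macrophage on the log2 scale. With quantile normalisation of floored log2 signals the median difference was -0.57 for the label with Bcl2, -1.30 for the interaction, and for Bcl2 -0.78 among controls and -1.74 among labelled deficient cultures. An offset of 50 gave -0.77 for the interaction and -1.06 for Bcl2 among labelled deficient cultures. Without the filter the values were -0.76 (interaction), 0.19 and -0.51 (Bcl2) and 0.33 (DN3), and a filter of 6 arrays gave 0.55 for the label without Bcl2, -0.78 for Bcl2 among controls and -0.26 for DN3. All kept probes gave 0.016 for Bcl2 among controls. Array weights gave 4 interaction calls and -0.71 for Bcl2 among controls. The replicate block over 4 groups gave 4 interaction calls, and the block within each Bcl2 background gave 6 (2 without it), adding 1 call, Gpnmb, for the label with Bcl2. Within slide 1 the label without Bcl2 had a difference of 0.67, the label with Bcl2 1 call and -0.69, the interaction 1 call and -1.49, and Bcl2 2 calls and -0.85 among controls and -1.89 among labelled deficient cultures. Within slide 2, with 1 array in each group without Bcl2, the label without Bcl2 had 8 calls and -0.79, the interaction 9 calls and -0.66, and Bcl2 -0.83 and -1.18. There S100a8 read -1.22 for the label without Bcl2 and 1.08 for the interaction, and Ly6c1 -1.42 for the interaction, against the direction reported. The deposited scores gave 2 calls for the label with Bcl2, 0 for the interaction, 0 and 7 for Bcl2 and 6 for DN3, and turned the sign of Lyz1 (interaction, -0.0893), Cd33 (DN3, 0.33) and Csf3r (DN3, 1.99). The cause was not tested. Leaving out each array in turn gave 0 to 0 calls for the label without Bcl2, 3 to 7 with Bcl2, 1 to 4 for the interaction, 9 to 13 and 11 to 19 for Bcl2, and 15 to 20 for DN3. The highest of these came without control replicate 3, the dimmest pro-B array: 7, 4, 13, 19 and 20. Median differences ranged from 0.15 to 0.57, -0.42 to -0.26, -1.32 to -0.86, -1.06 to -0.28, -1.83 to -1.31 and -0.17 to 0.10 in the same order. Of single-gene values, 3095 kept their side of the threshold, 162 of them with a changed sign while passing in neither setting, 82 newly passed, 115 no longer passed, and 6 changed sign while passing in 1 of the settings compared.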

Other observations

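Fcer1g had a pattern across arrays that followed neither the label nor Bcl2 alone, being high in replicates 1 and 2 of both groups without Bcl2 and at background in replicate 3 of both. Among arrays without Bcl2, replicates 1 and 2 are on slide 1 and replicate 3 on slide 2, so this split is also that of the slides. With Bcl2, Fcer1g differed by -4.85 among controls and -4.93 among labelled deficient cultures within slide 1, and by -0.54 and 0.08 within slide 2. Of 9687 genes, 78 were above background on those 4 arrays and on neither replicate 3, and 2 had a gap of more than 3 log2 units, Uap1 (3.54) and Fcer1g (3.50). Uap1, an enzyme of amino sugar synthesis, read 9.57, 8.91 and 4.86 in control and 9.75, 8.76 and 5.22 in labelled deficient cultures, and was above background on none of the 6 Bcl2 arrays. Both genes lie on chromosome 1 with 23 protein-coding genes between them, Fcgr3 and Fcgr2b among these. Uap1 was chosen after its values were seen, and the pattern was not tested.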
